A study of Mus musculus with 6 samples.

Results

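Rian, Meg3, Lncenc1, Snhg1, Tug1 and Malat1 are 6 long noncoding RNA genes in which the AGO2 target list of a mouse embryonic stem cell line placed at least 1 peak. A peak counted as theirs when its midpoint lay within the RefSeq span of the gene on GRCm38, the assembly also called mm10. This gave 20 peaks of the 3292 in the list, or 0.608%, with 6 in Rian, 5 in Lncenc1, 3 each in Meg3 and Snhg1, 2 in Tug1 and 1 in Malat1. The genes were chosen because they carry peaks, so these counts are a description and were not tested. Every gene was annotated as lncRNA in RefSeq.

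Every library, in all 3 groups, was made from E14 mouse embryonic stem cells of the genotype Spy3-Ago2, cultured in medium with serum and the self-renewal cytokine LIF. The tagged AGO2 was captured on a SpyCatcher3 resin, and its RNA was sequenced as 2 target libraries and 2 miRNA libraries, beside 2 input libraries from whole lysate. No cells without the tag were analysed here. The peaks form 1 list for the series with no value per library, so a peak has no spread between replicates here, and the depth of the target libraries is unknown. The miRNA libraries held 12562727 counts in replicate 1 and 22908172 in replicate 2. The miR-290/miR-295 miRNAs that mark mouse embryonic stem cells took 38.8% ± 0.42 of these counts and let-7, which marks differentiated cells, 0.0177% ± 0.0024 (SD, n = 2 for both).

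Argonaute proteins such as AGO2 hold a miRNA and pair its seed, bases 2 to 8, with other RNAs, mostly messenger RNAs. Long noncoding RNAs are annotated as encoding no protein, and some are cut into small RNAs. Meg3 and Rian belong to a maternally expressed, imprinted stretch that also yields many miRNAs and small nucleolar RNAs (snoRNAs), and Snhg1 releases snoRNAs from its introns. Many snoRNAs, though not all, guide chemical changes on ribosomal and spliceosomal RNA.

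Peaks in long noncoding genes were rare in the list. Of 12731 annotated lncRNA genes, 79 (0.621%) held a peak midpoint, and 16 (0.126%) held one on their own strand and outside every protein-coding span. Of 21900 protein-coding genes, 1824 (8.33%) held one. The 6 genes therefore supplied 19 of the 45 nuclear peaks (42.2%) that lay in noncoding genes or pseudogenes only. Among the other lncRNA genes with a peak outside every coding span, 19 in number, none held more than 2, and the gene with 2 was Xist, named after its values were seen. Both Xist peaks lay on the strand opposite to the gene and also within Tsix, annotated as antisense RNA and so not among the 19. Counting only peaks on the strand of the gene, none of these other genes held more than 1. Because the 6 genes were picked by their peaks, nothing follows from these shares about them. Neither the length nor the abundance of a transcript entered these counts.

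All 20 peaks lay on the strand of their gene. In peaks within exactly 1 protein-coding gene of known strand the share was 99.0% (2440 of 2464). The 19 other lncRNA genes with peaks outside every coding span held 20, of which 10 were on the strand of the gene, 8 on the opposite strand and 2 in genes whose strand was not known here. The exact Clopper-Pearson lower bound for 20 of 20 is 83.2%. It treats the peaks as independent, whereas peaks of 1 gene share a transcript and the genes were chosen, so it is no measure of spread. One of the 20 peaks, the last in Meg3, also lay in a protein-coding span, that of Rtl1.

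**Figure D1:**
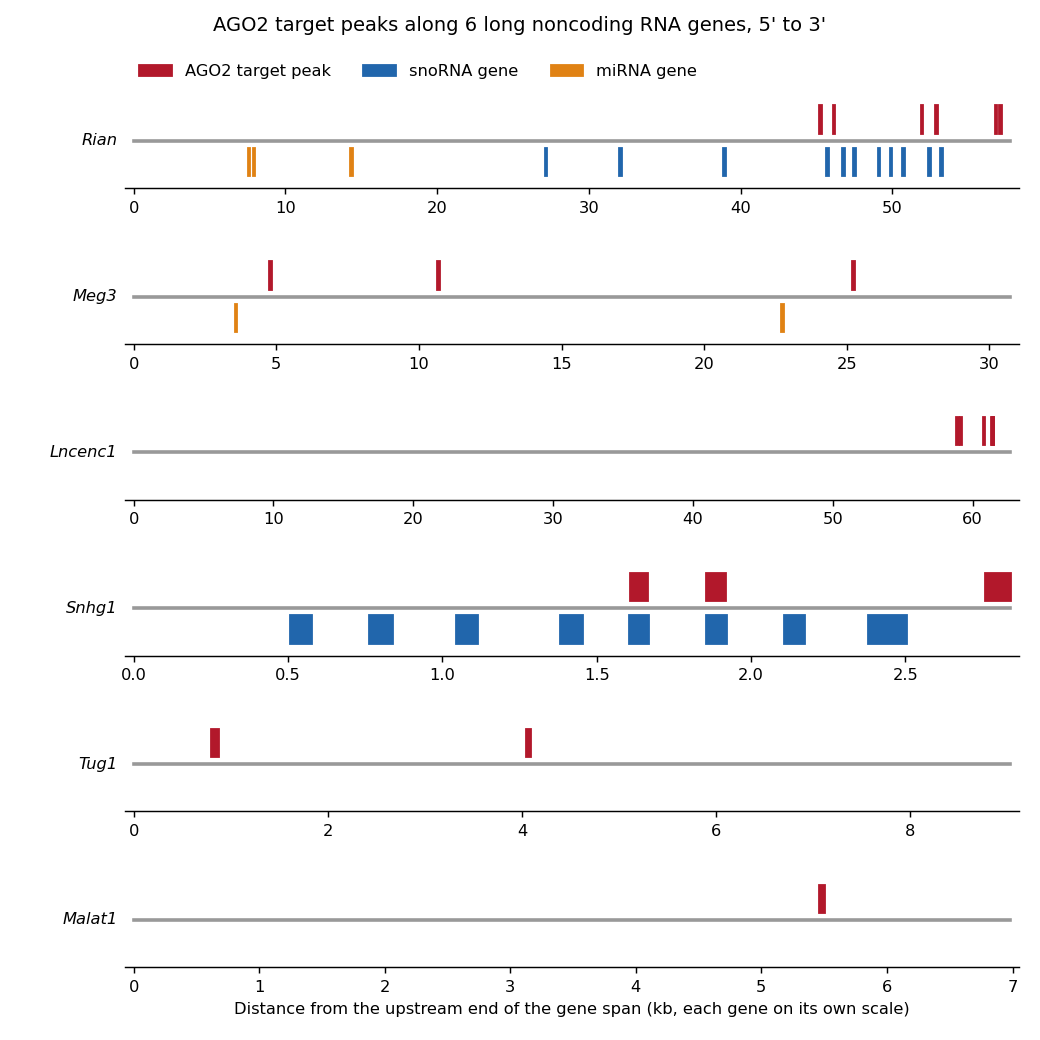
Each row is 1 gene drawn from its upstream to its downstream end in kb, each on its own scale, with target peaks above the grey line and snoRNA and miRNA genes within the span below it; very narrow features are drawn at a minimum width. The peaks of Rian and Lncenc1 sit toward the downstream end, those of Tug1 lie in the upstream part, and 2 peaks of Snhg1 stand on snoRNA genes.

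Rian (NCBI gene 75745, chr12:109603945-109661716, plus strand) is a maternally expressed imprinted gene whose RNA carries tandem snoRNAs. Its 6 peaks all lay in the downstream part, between 78.4% and 98.8% of the way along the 57772-nt span. The first peak began 45238 nt from the upstream end, beyond every miRNA gene in the span. The peaks came in 3 pairs. The first pair was at chr12:109649183-109649243 and chr12:109650073-109650101, with widths of 61 and 29 nt and midpoints 874 nt apart. The second pair, at chr12:109655859-109655921 and chr12:109656820-109656839, measured 63 and 20 nt with midpoints 939.5 nt apart. The third pair, at chr12:109660748-109660797 and chr12:109660982-109661114, measured 50 and 133 nt with midpoints 275.5 nt apart. The last peak was the widest of all 20, and its midpoint lay 668 nt from the end of the gene.

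The downstream part of Rian is also where most of its snoRNA genes stand. The span held 11 annotated snoRNA genes, of which 8 lay downstream of the start of the first peak. None of the 11 was overlapped by a peak. The annotation held 1340 snoRNA genes, and only 25 peaks of the whole list overlapped one, so this absence does not set Rian apart. The first 4 peaks lay between 286 and 424 nt from the nearest snoRNA gene, and the last pair lay 3552 and 3786 nt downstream of the last one, LOC115488050. The shortest of these distances, 286 nt, belonged to the 20-nt peak and the same snoRNA gene.

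Snhg1 (NCBI gene 83673, chr19:8723487-8726326, plus strand) had peaks on snoRNA genes where Rian had none, a difference that was not tested. It is a compact snoRNA host with a span of 2840 nt, 8 annotated snoRNA genes and 3 peaks. The peak at chr19:8725094-8725153 lay wholly inside LOC115489081 (chr19:8725092-8725156) and covered 92.3% of it. The peak at chr19:8725341-8725406 began on the first base of LOC115489086 (chr19:8725341-8725409) and covered 95.7% of it. These 2 peaks were thus nearly as long as a snoRNA gene and stopped 3 nt before its end in both cases. The third peak, at chr19:8726245-8726327, was 83 nt wide, ran 1 nt past the annotated end of the gene and lay 254 nt from the nearest snoRNA gene, Snord22. The other 6 snoRNA genes of Snhg1 carried no listed peak.

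Over the whole list, 25 of 3292 peaks (0.759%) overlapped a snoRNA gene by at least 1 base, against 2 of the 20 peaks described here, both in Snhg1. Of the other 23, 17 lay wholly within the snoRNA gene, and the median share of the snoRNA covered was 93.0%. In 11 of the 23 the host was a ribosomal protein gene. Snhg1 was thus 1 of several hosts with this geometry. Its density of 10.6 peaks per 10 kb of span was the highest of the 6 genes, and 2 of the 3 peaks behind it were those on snoRNA genes.

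Meg3 (NCBI gene 17263, chr12:109540996-109571729, plus strand), a maternally expressed imprinted gene upstream of Rian, had its 3 peaks spread along the span. They lay at chr12:109545765-109545814, chr12:109551642-109551742 and chr12:109566201-109566262. Their midpoints stood at 15.6%, 34.8% and 82.1% of the way along the gene, and their widths were 50, 101 and 62 nt. The distances between neighbours, 5902.5 and 14539.5 nt, were larger than any in the other 5 genes. The third peak lay in the part of the span that overlaps Rtl1 (chr12:109564900-109604418), a retrotransposon-derived gene known to be transcribed from the opposite strand. The peak was on the plus strand, that of Meg3.

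**Figure D2:**
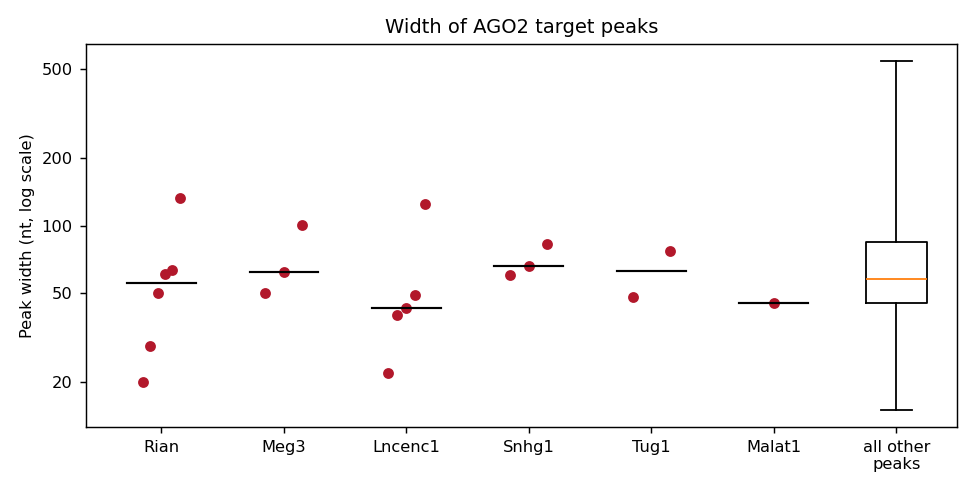
Width in nt on a log scale of each peak in the 6 genes (points, with the median as a line), and of all other 3272 peaks (box from the lower to the upper quartile with the median, whiskers to the lowest and highest). The widths of the 20 peaks run from 20 to 133 nt and centre close to those of the other peaks.

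Lncenc1 (NCBI gene 100039691, chr13:97434970-97497664, plus strand) encodes a noncoding RNA of naive embryonic stem cells. Its span of 62695 nt was the longest of the 6, yet all 5 peaks fell within 2598 nt, 4.14% of it. The first peak began 58870 nt from the upstream end and the last ended 1227 nt before the downstream end. The peaks lay at chr13:97493840-97493882, chr13:97494095-97494143, chr13:97495712-97495836, chr13:97496353-97496392 and chr13:97496416-97496437. Their widths were 43, 49, 125, 40 and 22 nt. Midpoints were 258, 1655, 598.5 and 54 nt apart, and the last 2 peaks, 23 nt apart between facing edges, were the only neighbours within 50 nt. No snoRNA or miRNA gene was annotated within the span.

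Tug1 (NCBI gene 544752, chr11:3639785-3648814, minus strand), a widely expressed noncoding RNA found in nucleus and cytoplasm, held peaks at chr11:3647939-3648015 and chr11:3644724-3644771. Their midpoints stood at 9.27% and 45.0% of the way along the 9030-nt span, and their widths were 77 and 48 nt. Tug1 was the only one of the 6 genes with every peak upstream of the middle of its span. Malat1 (NCBI gene 72289, chr19:5795690-5802672, minus strand), an abundant RNA of nuclear speckles, held a single peak at chr19:5797166-5797210. It was 45 nt wide, stood at 78.5% of the 6983-nt span and lay 1185 nt upstream of Mascrna, the small tRNA-like RNA cut from the end of the Malat1 transcript.

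Over the 6 genes, the median peak width was 55 nt with quartiles of 44.5 and 68.75 nt, against 58 nt with quartiles of 45 and 84 nt in the other 3272 peaks. Peaks of at least 100 nt numbered 3 of 20 (15.0%), against 16.8% over the whole list. Peaks under 30 nt numbered 3 (15.0%), namely 2 in Rian and 1 in Lncenc1, against 143 (4.37%) of the other peaks. The midpoint stood at a median of 86.0% of the span, against 83.6% for the peaks within 1 protein-coding gene of known strand. The last 10% of the span held 9 of 20 peaks (45.0%), against 41.8% of those peaks. Without Lncenc1 the share was 4 of 15 (26.7%), and the median of the 6 genes' own median positions was 72.5%. Of the 9 peaks in the last 10%, 5 belonged to Lncenc1, 3 to Rian and 1 to Snhg1. Tug1, Malat1 and Meg3 had none there. These positions run along spans that include introns, because exons were not used here. The peaks of 1 gene share their transcript and are not replicates.

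**Figure D3:**
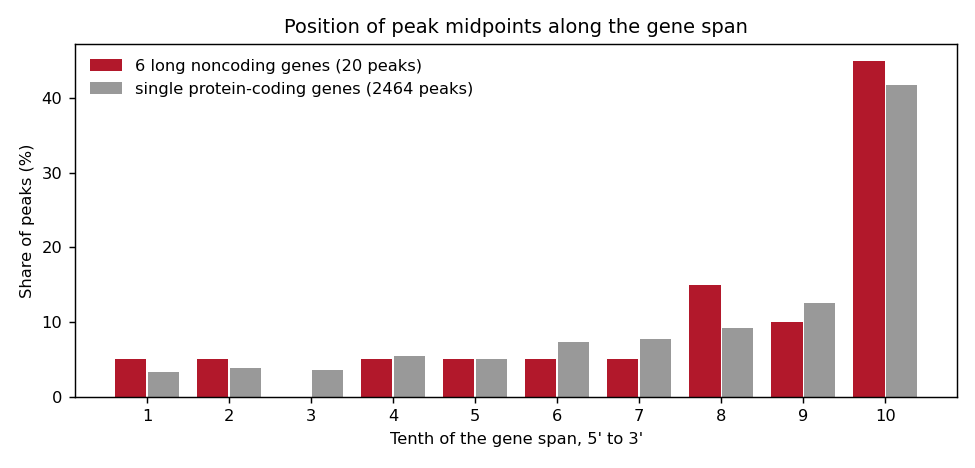
Share of peak midpoints in each 10% of the gene span, from the upstream to the downstream end, for the 20 peaks of the 6 genes and for 2464 peaks within 1 protein-coding gene of known strand. The last 10% holds the largest share in both, 45.0% and 41.8%.

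Spacing between neighbouring peaks of a gene ranged from 54 to 14539.5 nt with a median of 926 nt over 14 neighbours, against a median of 1547 nt, with quartiles of 289 and 7773.5 nt, over 1353 neighbours in protein-coding genes. Facing edges lay at most 50 nt apart in 1 of the 14, against 15.7% in protein-coding genes. The list also carries peak numbers up to 30438, which run along each chromosome and strand, so that missing numbers count the entries not listed in between. In the 5 genes with at least 2 peaks, 19 of the 52 numbers from first to last peak were listed (36.5%), against 1956 of 6131 (31.9%) in 603 such runs of protein-coding genes. Over the whole list 10.8% of the numbers were listed. Because a run begins and ends on a listed peak, part of its share is fixed. Without the end peaks, 9 of 42 numbers (21.4%) were listed in the 5 genes, against 750 of 4925 (15.2%) in the protein-coding runs, which was not tested. In the protein-coding runs only peaks within exactly 1 protein-coding gene counted as listed. Both shares given for those runs are therefore lower bounds. In Rian 6 of 16 numbers were listed, in Lncenc1 5 of 13, in Meg3 3 of 10, in Snhg1 3 of 7 and in Tug1 2 of 6. Why those entries are missing from the list is unknown here.

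No peak of the 6 genes overlapped a miRNA gene. Few peaks of the list lay even within 5000 nt of one, as given next, so this absence does not set the 20 peaks apart. A miRNA gene lay within 5000 nt of 2 of the 20 peaks, both in Meg3, against 3.68% of the nuclear peaks on chromosomes with miRNA genes. These were the first Meg3 peak, 1145 nt from Mir1906-1, and the third, 2416 nt from Mir770, both measured from the peak's edge. The second Meg3 peak lay 7022 nt from Mir1906-1. In Rian the nearest miRNA gene stood between 21083 and 31737 nt away, either Mir370 upstream or Mir882 beyond the gene. The Snhg1 peaks lay between 16644 and 17818 nt from Mir6992 and the Malat1 peak 118090 nt from Mir6987. For Tug1 the nearest was Mir3060, at 491349 and 494593 nt, and for Lncenc1 Mir5624, at 3703003 to 3705579 nt. These distances ignore strand. Among the 1005 hairpins of known strand, the nearest on the strand of the Tug1 peaks was Mir1933, 17696611 and 17699840 nt from the midpoints. For the first and second Meg3 peaks it was Mir770, at 17902 and 12000 nt. The other peaks kept the same nearest gene. From the midpoint, the median distance was 28592 nt for the 20 peaks and 494616.5 nt over the nuclear peaks. The 12 peaks of Rian, Meg3 and Snhg1 were the ones within 50000 nt of a miRNA gene. The share of all nuclear peaks within 50000 nt is not given here. The lower quartile of their midpoint distance, 128959.5 nt, lay beyond that limit. Of the 12, 9 lay in Rian and Meg3, in 1 imprinted stretch that yields many miRNAs.

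Within the spans themselves, RefSeq placed Mir341, Mir1188 and Mir370 in Rian and Mir1906-1 and Mir770 in Meg3, and the other 4 genes held none. Their mature miRNAs were counted in the AGO2 miRNA libraries. The sequences of those with over 100 counts in both libraries are given here from RefSeq (GRCm38.p6), 5′ to 3′ with the seed in capitals, together with miR-127-3p, the most abundant miRNA encoded between the start of Meg3 and the end of Rian.
miR-370-3p (Rian): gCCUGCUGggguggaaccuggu
miR-341-3p (Rian): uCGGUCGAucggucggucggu
miR-1188-5p (Rian): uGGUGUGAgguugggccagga
miR-770-5p (Meg3): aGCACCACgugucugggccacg
miR-770-3p (Meg3): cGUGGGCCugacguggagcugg
miR-127-3p (between Meg3 and Rian): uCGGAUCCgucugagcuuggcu
The 9 mature miRNAs of the Rian and Meg3 spans had 9 different seeds, and each of the 6 seeds printed belonged to no other miRNA of the RefSeq table.

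miR-370-3p was the most abundant of them, with 288 CPM (counts scaled to the total of the library) in replicate 1 and 709 CPM in replicate 2. It lay at chr12:109618305-109618326, and its 3613 and 16245 counts made up 0.0288% (95% Wilson interval 0.0278 to 0.0297) and 0.0709% (0.0698 to 0.0720). The 2.47-fold difference was far beyond counting error, so its mean of 498 ± 298 CPM (SD, n = 2) is poorly fixed. miR-341-3p (chr12:109611556-109611576) had 92.7 and 126 CPM, and miR-770-5p (chr12:109563710-109563731) had 101 and 96.4. The order of miR-341-3p and miR-770-5p changed between the libraries, so these neighbours do not differ beyond their spread. miR-770-3p had 8.44 and 7.42 CPM, miR-1188-5p 8.20 and 4.93, and miR-1188-3p 1.75 and 1.40. miR-370-5p, from the other arm of the miR-370 hairpin, had 2 counts and 1 count. miR-341-5p had 0 counts in both libraries. The floor of 3 counts equals a share of 2.39e-05% in replicate 1 and 1.31e-05% in replicate 2. The 95% Wilson interval of miR-341-5p reached up to 3.06e-05% and 1.68e-05%. miR-1906 also had 0 counts, and its mature sequence has 2 annotated loci.

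**Figure D4:**
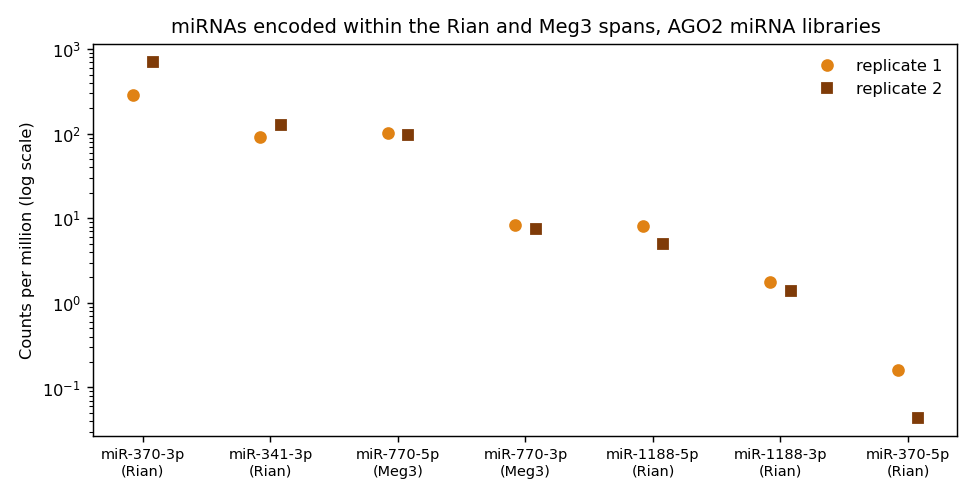
CPM on a log scale of the 7 miRNAs encoded within the Rian and Meg3 spans that had a count in both libraries, 1 point per library; miR-341-5p and miR-1906 had 0 counts and are not drawn. miR-370-3p stands highest and shows the widest gap, 288 against 709, among the miRNAs with over 100 counts in both libraries.

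All miRNAs of the Rian and Meg3 spans together made up 0.0500% of the miRNA counts in replicate 1 and 0.0945% in replicate 2. The stretch between both genes, 32215 nt long with 13 hairpins of the RefSeq table on the plus strand, gave 4.59% and 3.91%. It includes miR-127-3p with 2.61% ± 0.40 and miR-665-3p with 0.680% ± 0.046 (SD, n = 2 for both). The stretch from the end of Rian to the end of Mirg, the noncoding gene that closes the miRNA cluster, gave 3.83% ± 0.24 (SD, n = 2) from 37 hairpins. Both stretches exceeded the Rian and Meg3 spans in each library by more than the spread between libraries.

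The same stretches differ in length and, for Meg3 and Rian, were chosen for carrying peaks, so their peak counts are a description. The Meg3 span held 3, the stretch between Meg3 and Rian 4, the Rian span 6 and the stretch from Rian to the end of Mirg 0, and none lay on the minus strand. Per 10 kb these were 0.976 in the Meg3 span, 1.24 between both genes and 1.04 in the Rian span. The 4 peaks outside both spans lay on the plus strand within the span of Rtl1. Of these, 3 stood close together at chr12:109578006-109578046, chr12:109578100-109578139 and chr12:109578167-109578300, and the fourth, at chr12:109588943-109589004, lay 263 nt from Mir3070b. They belong to neither gene by the rule used here and were not counted among the 20.

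**Figure D5:**
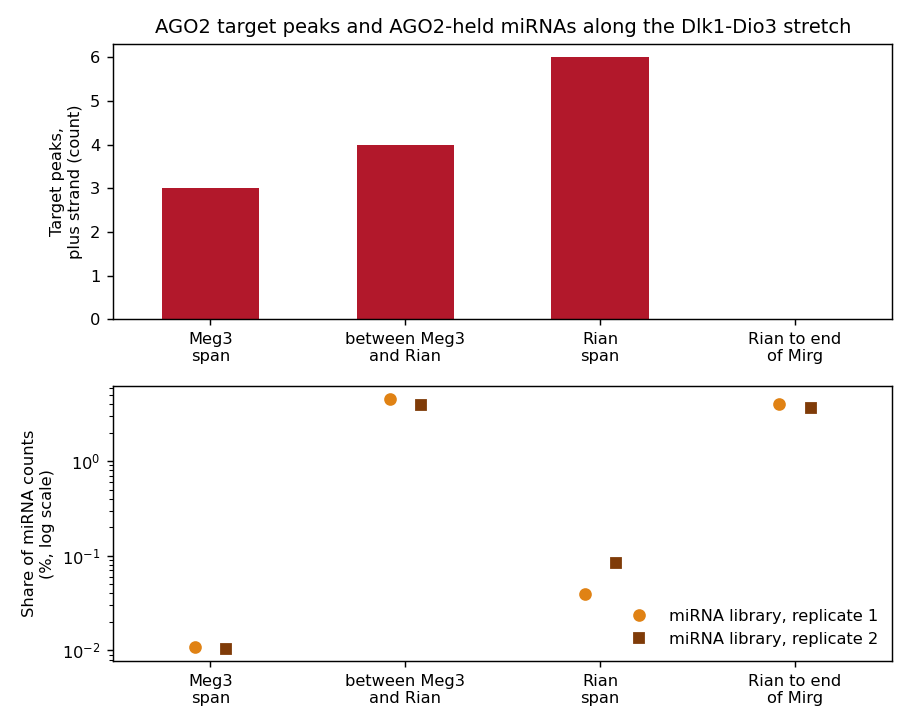
Number of target peaks on the plus strand (top) and share of miRNA counts in percent on a log scale, 1 point per library (bottom), for 4 successive stretches from the start of Meg3 to the end of Mirg. The stretches differ in length, and the Rian span, with 6 peaks (1.04 per 10 kb), holds 0.0390% and 0.0841% of the miRNA counts, while the stretch between Meg3 and Rian has 4 peaks (1.24 per 10 kb) and the last stretch has 0 peaks with 3.83% ± 0.24 (SD, n = 2).

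Other noncoding genes were read from 5 lists, beside the 0.621% of all annotated lncRNA genes that held a peak. Of 19 listed snoRNA hosts, 4 carried a peak: Rian, Snhg1, Gas5 and Snhg15. The Gas5 peak (chr1:161038083-161038157) covered all of Snord47, and the Snhg15 peak (chr11:6525720-6525795) overlapped no snoRNA gene. Of 9 annotated imprinted noncoding genes on a list, Meg3 and Rian alone carried peaks, and of 9 annotated ones listed for embryonic stem cells Lncenc1 alone did. Of 11 listed nuclear noncoding genes, 4 did, namely Malat1, Meg3, Xist and Tsix. The last pair shares the same 2 peaks, on the strand opposite to Xist, the RNA that coats the inactive X chromosome. Of 17 other well-studied genes, Tug1 and Oip5os1 had peaks, 1 of them in Oip5os1 at chr2:119596962-119597002. The 6 genes were on these lists from the start, so the counts are no separate evidence.

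The lncRNA genes with the most peaks outside the 6 were Gm15441 with 8, Gm20716 with 6, Gm39273 with 5, Gm10644 with 4 and Gm20548 with 3, and 5 genes tied at that last number. Every peak of the 5 named genes also lay in a protein-coding span. In Gm39273 and Gm10644 none was on the strand of the noncoding gene, whereas all 6 were in Gm20716, where the source cannot be told apart by span. Among protein-coding genes of known strand, 7 had 6 peaks like Rian. The nearest in median position was Tnrc6a, which encodes a partner of AGO2, at 90.8% against 90.7% in Rian. Rpl14, Alg13, Prpf8 and Sec16a followed at 67.3%, 58.5%, 51.0% and 42.8%.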

How the data were processed

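Per the submitters' processing notes, mm10 was the build and the tools were deepTools 3.1.3, DESeq2 1.36.0, STAR 2.5.2a, Bowtie2 2.4.2, UMI-tools and cutadapt 2.10, with no role stated. The authors deposited raw counts per mature miRNA for 2 libraries and 1 peak list, whose score is 0 throughout, so peaks could not be ranked. How peaks were called, pooled or set against input is not stated in what was used here. The row that names no miRNA holds 0 counts. Wilson intervals and floors cover counting error only.

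Peaks were assigned by midpoint to RefSeq GRCm38.p6 spans. Strand came from the RefSeq promoter table. It covered 1419 of the 1716 protein-coding genes that held a nuclear peak lying in exactly 1 protein-coding gene. Positions are counted from 1. Distances run between nearest bases unless midpoints are named. Distances to and overlaps with miRNA and snoRNA genes ignore strand unless it is named. Shares carry 95% Wilson intervals, and 3 counts set the floor. The labels do not say whether replicates came from separate cultures, so their spread may be technical. Nothing was tested between groups, since the peaks form 1 list without values per library. Members, lists and naming rules (members' peaks, host miRNAs, 5 further noncoding and 5 like coding genes) were chosen with earlier results of these data known. Seed matches and exon positions were not run, as no genome or exons were used. Assignment was tested on simulated peaks inside genes that did not overlap. Overlapping spans, unknown strands and peaks that run past a gene end were not covered. Python 3.11.15, pandas 2.3.3, numpy 2.4.6, scipy 1.17.1 and matplotlib 3.10.9 were used.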

Additional observations from a re-analysis of the deposited data

How the results depend on the processing

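Of 57 values recomputed under alternative settings, 51 stayed within 1.5-fold of the reported count, within the interval of the reported median or share, or within 1 SD for the miRNA shares. The intervals treat peaks of 1 gene as independent and were wide, so staying within them shows little. They ran from 66.4% to 97.0% for position, 258 to 5803 nt for spacing and 17847 to 494616 nt for the distance to a miRNA gene. Several of the 51 could not move by construction and show nothing about stability. These include either replicate left out of 2, and peaks on the gene strand only, which keeps all 20. They also include snoRNA peaks left out in Meg3, Lncenc1, Tug1 and Malat1, which hold no snoRNA genes, and merging in Malat1, which has 1 peak. Keeping only peaks of at least the list's median width left 10 of the 20 peaks, with 3 in Rian, 1 in Lncenc1, 1 in Tug1 and 0 in Malat1. Without peaks on snoRNA genes, a setting chosen after seeing the data, Snhg1 had 1 peak and the total was 18. The total was 19 or 20 with any overlap, full inclusion, peaks in coding spans left out or peaks within 50 nt merged. Without Lncenc1 the median position was 78.5%, also chosen after seeing the data. The share of the miRNAs within Rian and Meg3 ran from 0.0500% to 0.0945% when either replicate was left out. No paired analysis was possible because the peak list has no column per replicate and the miRNA libraries form 1 group. Seed matches and positions along exons were planned and not run, since neither a genome nor exons were used. The unknown depth of the target libraries limits every count of peaks.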
